A study of Mus musculus with 8 samples.

Results

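The TRIM (tripartite motif) genes were described in mouse macrophages with and without the kinase Tpl2. Members were all genes whose annotated symbol is Trim followed by a digit and that have a probe set listing exactly 1 symbol. Where a gene had several such probe sets, the brightest on average was taken. This gave 58 TRIM genes among 18193 genes measured. Of 68 protein-coding genes of that name in the RefSeq table, 10 had no such probe set (Trim34b, Trim38, Trim50, Trim52, Trim55, Trim58, Trim30b, Trim30c, Trim43b and Trim43c) and were not analysed here.

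Bone marrow cells grown into macrophages with macrophage colony-stimulating factor were hybridised to 8 Affymetrix arrays, in 4 groups of 2. The groups were Tpl2-deficient cells given lipopolysaccharide (LPS, a toll-like receptor 4 ligand, from Escherichia coli, 1 μg/mL), wild-type cells given LPS, unstimulated Tpl2-deficient cells and unstimulated wild-type cells, written below as KO with LPS, WT with LPS, unstimulated KO and unstimulated WT. The labels give neither the length of the LPS treatment of these arrays nor the animals' age, strain or number, and they name no agent beyond the growth factor that all groups share. The replicates are called biological without a statement that they came from separate animals, so the p-values speak to the spread among these arrays alone, which may be technical.

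TRIM proteins carry a RING finger, B-box zinc fingers and a coiled coil, and most act as ubiquitin ligases, with a C-terminal domain that binds the target. In macrophages they are known for catching viral capsids and antibody-coated particles and for attaching ubiquitin to the sensors and adaptors of innate signalling. Many are induced by interferon, which macrophages make after toll-like receptor 4 engages its adaptor TRIF. Tpl2, encoded by Map3k8, is the kinase that links toll-like receptors to MEK and ERK.

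Values are log2 signals from robust multi-array averaging (RMA). Arrays have no read depth, and their number limits the precision. The signals of different probe sets are not comparable with each other, so each gene was compared only with itself across arrays. Array medians lay between 6.48 and 6.53. A group mean below the mean of its arrays' medians was read as low signal, so a change from or to such a level is given as "at least", and none is given where both groups lie there.

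Map3k8, the targeted gene, is covered by 1 probe set and was lower by 1.00 log2 units in KO cells both with LPS (mean 9.96 in KO, 10.96 in WT) and without it (8.27 in KO, 9.27 in WT), so a signal remained in the deficient cells. Of 10 macrophage markers measured, 9 were above the array median in at least 1 group and Cd163 was below it in all 4, with a mean marker level of 12.1 to 12.4 on every array. With LPS 3 were called higher and 5 lower in KO cells, where 16% and 25.8% of all genes were. In WT cells 3 were higher and 3 lower, where 21.3% and 30.9% of all genes were. Between genotypes with LPS, Mertk was 1.00 higher in KO, and Msr1 and Itgam were 1.19 and 0.70 lower. All 3 passed, where 8.01% of all genes were higher and 5.73% lower. Of 7 neutrophil markers, 5 (Mpo, Elane, S100a9, Ngp and Ltf) stayed under the median in all groups. Camp and S100a8 lay above it and passed with LPS in both genotypes. Camp rose by 0.96 in KO and 0.90 in WT cells, and S100a8 by 0.57 in KO and 1.38 in WT cells. With LPS S100a8 was 1.14 lower in KO than in WT (adjusted p = 0.000142, limma). The list's mean level was 6.67 to 6.81 in KO with LPS, 6.91 to 6.97 in WT with LPS, 6.39 to 6.48 in unstimulated KO and 6.34 to 6.39 in unstimulated WT. The mean level of 5 stromal markers was 7.32 to 7.64 in KO with LPS, 7.27 to 7.32 in WT with LPS, 6.16 to 7.19 in unstimulated KO and 6.59 to 6.64 in unstimulated WT, and Pdgfrb was the one that passed the test with LPS. The part of these cells in the results below was not tested, and in bulk RNA fewer cells of a type and less RNA per cell cannot be told apart. The KO arrays with LPS agreed less than those of the other groups (r = 0.994 over probe sets, against 0.997 in each of the others). Over the TRIM genes the median SD was 0.179 in KO with LPS, against 0.0647 in WT with LPS, 0.0730 in unstimulated KO and 0.0762 in unstimulated WT.

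Of the 58 TRIM genes, 35 were above the array median in all 4 groups, 6 in some and 17 in none. The 17 make up 29.3% of the TRIM genes, and 33.3% of all genes lay under the median in all groups. They include Trim54, Trim63 and Trim72, known from muscle, the neuronal proteins Trim9 and Trim67, and Trim71, the counterpart of the worm lin-41 gene. Trim6, Trim7, Trim15, Trim17, Trim31, Trim42, Trim43a, Trim66, Trim69, Trim75 and Trim80 are the rest. The 6 in between were Trim2, Trim10, Trim16, Trim24, Trim62 and Trim68.

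**Figure D1:**
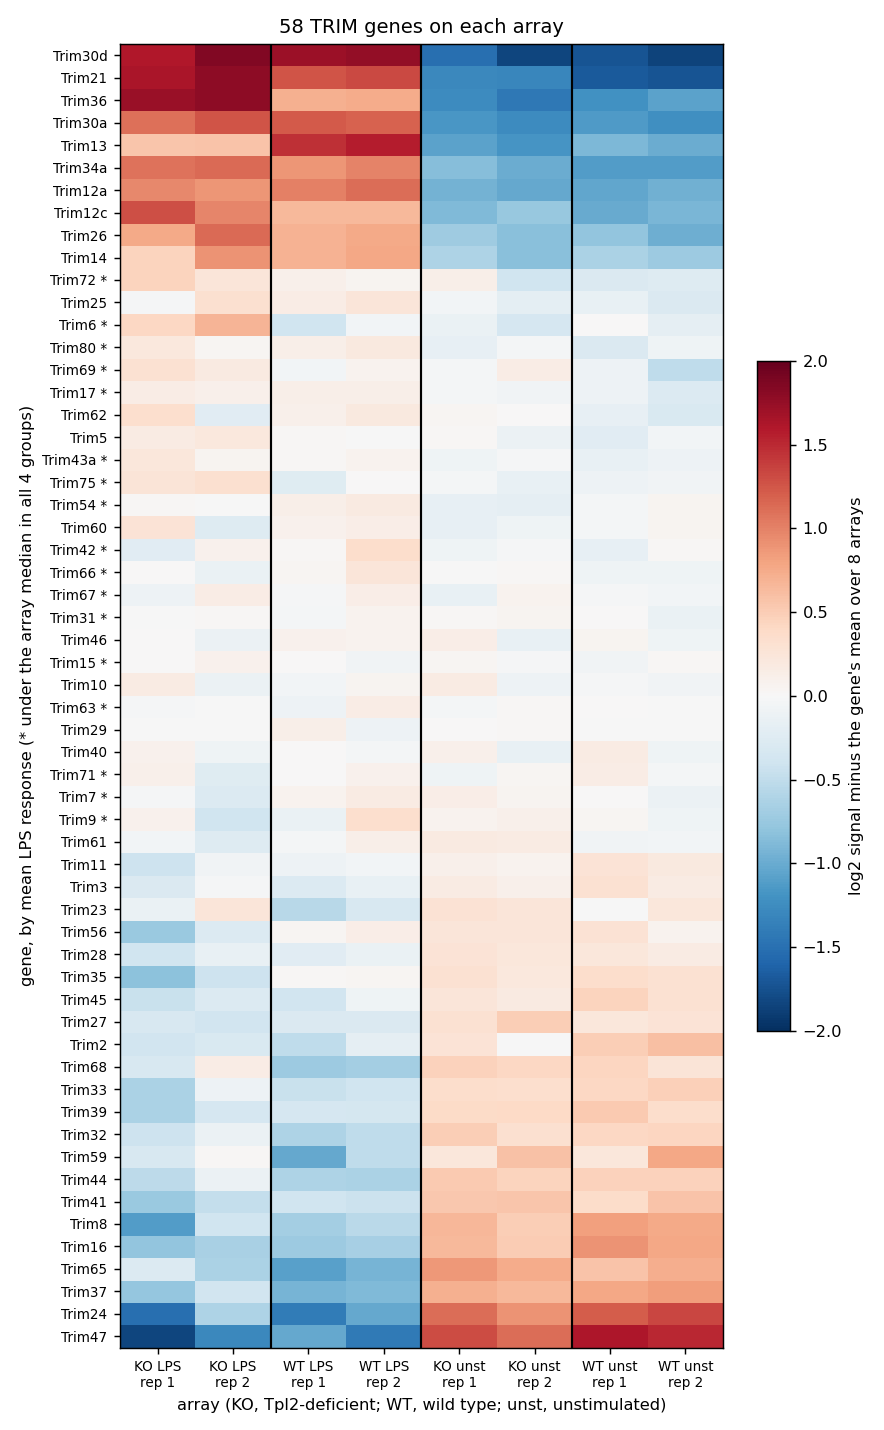
Log2 signal of each of the 58 TRIM genes (rows, by mean LPS response) on each of the 8 arrays (columns), as the difference from that gene's own mean; an asterisk marks the 17 genes under the array median in all 4 groups. The 10 top rows are red on all LPS arrays and blue on all unstimulated arrays, and the rows at the bottom show the opposite.

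With LPS some TRIM genes were higher and more were lower, in both genotypes. In KO cells 13 TRIM genes were higher with LPS and 20 lower (22.4% and 34.5% of members; limma with Benjamini-Hochberg adjustment over all genes, adjusted p under 0.05), where 16% of all genes were higher and 25.8% lower. In WT cells 13 were higher and 19 lower (22.4% and 32.8%), where 21.3% of all genes were higher and 30.9% lower. The share of TRIM genes called was therefore near the background in WT cells. At a fold of at least 2, 10 members were higher and 7 lower in KO cells (17.2% and 12.1%, against 5.94% and 8.52% of all genes), and 10 were higher and 9 lower in WT cells (17.2% and 15.5%, against 5.46% and 11.6%). The median change over the members was -0.03 in KO cells and 0.04 in WT cells, beside 0.00 and 0.04 over all genes, and with arrays centred on the hybridisation spike-ins it was -0.23 in KO and -0.10 in WT cells. The Actb 3' minus 5' probe set signal, a sign of RNA quality, also moved with LPS: it was 0.65 ± 0.05 in KO with LPS, 0.51 ± 0.06 in WT with LPS, 0.88 ± 0.03 in unstimulated KO and 0.74 ± 0.10 in unstimulated WT (log2, SD, n = 2 each). For Gapdh it was 0.08, -0.08, 0.07 and 0.03 in the same groups, and the part of RNA quality in the LPS changes was not tested. The calls include 4 in KO cells (Trim2, Trim6, Trim72 and Trim75) and 2 in WT cells (Trim17 and Trim80) of genes under the array median in both groups compared.

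The same genes moved in both genotypes for the most part. Of the 58, 10 rose in both, 16 fell in both, 0 moved in opposite directions, and 19 passed in neither. A further 3 rose and 4 fell in KO cells only by the threshold, and 3 rose and 3 fell in WT cells only by the threshold. Of these 13, Trim6 was the one whose responses differed past the test of the difference itself. Across the 58 genes the responses of the separate KO and WT arrays correlated at r = 0.959, beside 0.902 over all genes. Genes are not independent replicates, and the figure is a description. Calls shared by the genotypes were not counted over all genes, so the counts above are not read as particular to the family.

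**Figure D2:**
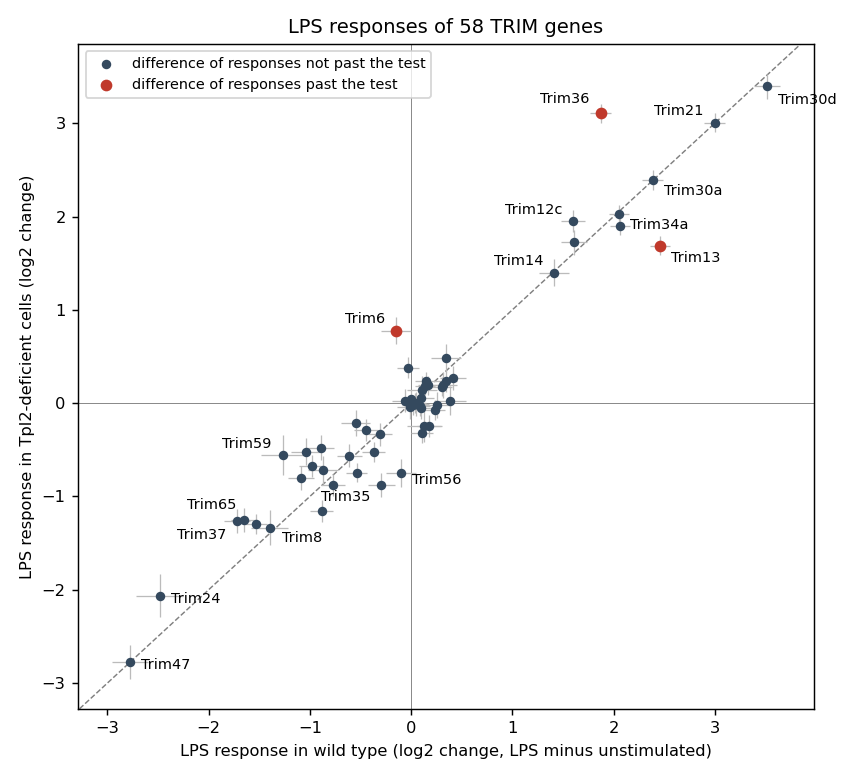
Log2 change with LPS in WT (horizontal axis) and KO cells (vertical axis) for 58 TRIM genes, with SE bars; the dashed line marks equal responses. Most genes lie near the line, and the 3 red points (Trim36, Trim6 and Trim13) are those whose difference of responses passed the test.

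Many of the largest rises were in a group of TRIM genes on chromosome 7. In RefSeq order, Trim6, Trim34a, Trim5, Trim12a, Trim34b, Trim12c, Trim30b, Trim30c, Trim30a and Trim30d follow each other, with 1 other protein-coding gene between Trim12c and Trim30b. Trim21 and Trim68 lie apart from them on the same chromosome. Of these, 9 were measured and make up the group counted here. Trim3, Trim28, Trim66 and Trim72 are on chromosome 7 as well and were not put in the group. Of those left out, Trim3 and Trim28 fell in WT cells (-0.45 and -0.37) and Trim28 fell in KO cells (-0.52). Trim66 and Trim72 lay under the array median in all groups, and Trim72 was called higher in KO cells. In KO cells 7 of the 9 were called higher with LPS and 1 lower, where 16% of all genes were higher and 25.8% lower, and the 7 include Trim6, which lay under the array median in both groups. In WT cells 6 of the 9 were higher and 1 lower, where 21.3% of all genes were higher and 30.9% lower. The median change of the 9 was 1.95 log2 units in KO cells and 2.05 in WT cells, beside 0.00 and 0.04 over all genes.

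The proximal promoters of this group were read from RefSeq (GRCm38.p6), as windows from 250 bases before to 50 after each annotated start. They were searched on both strands for the core of the interferon-stimulated response element, which is GAAA, any 2 bases and GAAA again (on the other strand TTTC, any 2 bases and TTTC). The motif is known as the place where interferon regulatory factors and the ISGF3 complex bind, and overlapping matches were counted. It was present in 3.44% of 32851 windows and in 3.99% of 27025 genes. Of the 10 TRIM genes that rose in both genotypes, 8 had a window and 7 of the 8 held the motif. Among the 16 that fell in both, 12 had a window and 1 held it (Trim2, in 1 of its 5 windows). Of the 32 others, 27 had a window and 1 held it (Trim5). A match describes letters in a window and is not a binding site. The stretches round the match are shown because the 6 chromosome 7 genes that rose in both genotypes all hold it, with Trim5, which did not pass, for comparison. Each is on the strand of its gene, with the motif in capitals.
Trim30d, chr7:104507856-104507915, minus strand: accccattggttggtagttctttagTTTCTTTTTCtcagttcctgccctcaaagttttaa
Trim30a, chr7:104465195-104465254, minus strand: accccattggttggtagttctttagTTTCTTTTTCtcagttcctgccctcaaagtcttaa
Trim30a at its other start, chr7:104446089-104446148, minus strand: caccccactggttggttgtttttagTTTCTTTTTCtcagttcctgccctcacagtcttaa
Trim12a, chr7:104315451-104315510, minus strand: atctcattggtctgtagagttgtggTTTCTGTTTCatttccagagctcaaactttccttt
Trim5, chr7:104288121-104288180, minus strand: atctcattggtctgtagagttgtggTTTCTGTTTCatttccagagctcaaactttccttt
Trim12c, chr7:104353344-104353403, minus strand: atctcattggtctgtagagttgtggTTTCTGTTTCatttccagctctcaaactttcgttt
Trim34a, chr7:104244442-104244501, plus strand: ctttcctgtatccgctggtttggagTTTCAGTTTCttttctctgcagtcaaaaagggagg
Trim21, chr7:102565433-102565494, minus strand: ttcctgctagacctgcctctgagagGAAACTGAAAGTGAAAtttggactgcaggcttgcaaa

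The Trim30d stretch and the first Trim30a stretch share 59 of 60 bases. Those of Trim12a and Trim5 are identical over 60 bases, and Trim12c shares 57 of 60 with each. The match begins 41 bases before the start in Trim30d, 49 before it in Trim5 and 29 before it in Trim12c. In Trim12a, Trim34a and Trim21 it begins after the start, at positions 11, 11 and 14. Trim21 holds 2 overlapping matches and Trim26, on chromosome 17, holds 2 as well.

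Trim30d, a close relative of Trim30a, had 13.07 and 13.33 in KO with LPS, 13.18 and 13.23 in WT with LPS, 9.97 and 9.65 in unstimulated KO, and 9.76 and 9.63 in unstimulated WT. Every LPS array lay above every unstimulated array, and the genotypes overlapped in both conditions. The rise was 10.5-fold in KO cells (log2 3.39 ± 0.13 SE, adjusted p = 3.18e-09, limma) and 11.4-fold in WT cells (3.51 ± 0.13, adjusted p = 2.42e-09).

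Trim30a, which in mouse macrophages is known to lower NF-kB signalling by removing TAB2 and TAB3, had 13.39 and 13.54 in KO with LPS, 13.52 and 13.47 in WT with LPS, 11.13 and 11.03 in unstimulated KO, and 11.15 and 11.06 in unstimulated WT. The LPS arrays stood clear of the unstimulated arrays and the genotypes overlapped. LPS raised it 5.24-fold in each genotype (log2 2.39 ± 0.10 in both). Of its known targets, Tab2 rose by 0.86 in KO and 1.13 in WT cells, while Tab3 changed by -0.02 and -0.11 and did not pass.

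Trim34a, whose human counterpart acts on retroviral capsids, had 12.28 and 12.32 in KO with LPS, 12.08 and 12.18 in WT with LPS, 10.34 and 10.21 in unstimulated KO, and 10.07 and 10.08 in unstimulated WT. The 2 conditions did not overlap, and in each of them both KO arrays lay above both WT arrays. The rises of 4.07-fold in KO and 4.15-fold in WT cells (log2 2.03 and 2.05, SE 0.10) were close to each other. The KO minus WT difference under LPS was 0.17 (95% interval -0.05 to 0.39) and did not pass.

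Trim12a and Trim12c are mouse relatives of the primate capsid-restriction factor TRIM5. Trim12a had 10.09 and 10.02 in KO with LPS, 10.14 and 10.24 in WT with LPS, 8.19 and 8.11 in unstimulated KO, and 8.09 and 8.17 in unstimulated WT. The LPS arrays were all higher than the unstimulated arrays, with rises of 3.74-fold in KO and 4.17-fold in WT cells. Trim12c had 11.67 and 11.37 in KO with LPS, 11.03 and 11.03 in WT with LPS, 9.51 and 9.62 in unstimulated KO, and 9.39 and 9.48 in unstimulated WT. Here both KO arrays lay above both WT arrays in each condition, and the rises were 3.87-fold in KO and 3.03-fold in WT cells.

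Trim5, the mouse gene that carries the name of the primate factor, did not pass with LPS although its promoter stretch matches that of Trim12a letter for letter. It had 8.46 and 8.52 in KO with LPS, 8.32 and 8.29 in WT with LPS, 8.32 and 8.19 in unstimulated KO, and 8.08 and 8.24 in unstimulated WT. The changes were 0.23 ± 0.10 in KO (adjusted p = 0.0998, limma) and 0.14 ± 0.10 in WT cells (adjusted p = 0.268). All LPS arrays of a genotype still lay above its unstimulated arrays.

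Trim21, the cytosolic antibody receptor that also ubiquitinates interferon regulatory factors, had 13.45 and 13.61 in KO with LPS, 13.08 and 13.14 in WT with LPS, 10.53 and 10.51 in unstimulated KO, and 10.13 and 10.09 in unstimulated WT. Its rise was the same size in both genotypes, 8.03-fold in KO and 7.99-fold in WT cells (SE 0.10 on the log2 scale in each). KO arrays were above WT arrays in each condition, by 0.42 with LPS and 0.41 without it.

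**Figure D3:**
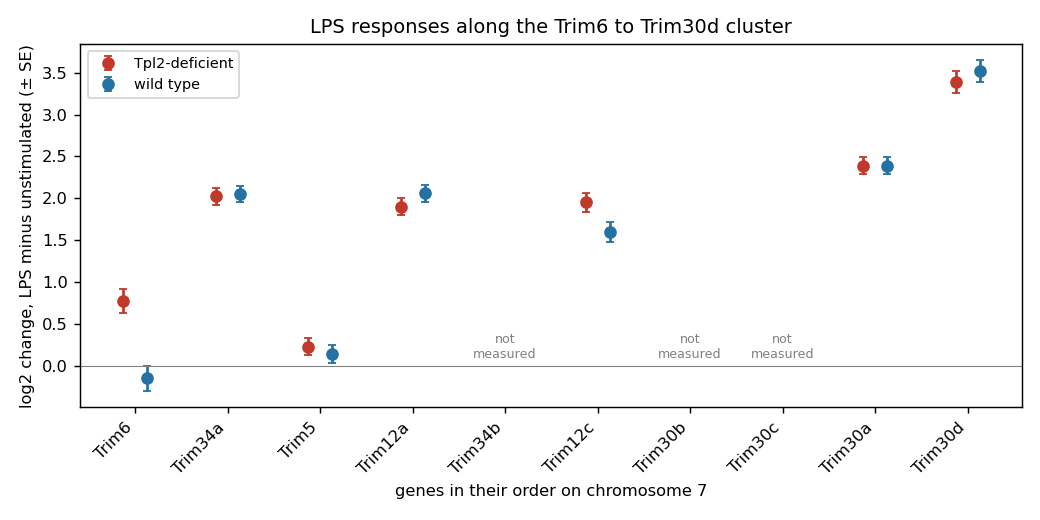
Log2 change with LPS (± SE) in KO (red) and WT cells (blue) for the genes from Trim6 to Trim30d in their order on chromosome 7; genes without a single-symbol probe set are marked as not measured. The changes run from 0.23 for Trim5 to 3.39 for Trim30d in KO cells and from -0.15 for Trim6 to 3.51 for Trim30d in WT cells, and the genotypes part visibly at Trim6 and Trim12c. The difference of responses passed for Trim6 and did not pass for Trim12c (0.35, adjusted p = 0.238, limma).

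Several of these genes are near-identical copies, so their probe sets may share signal and the split between copies is uncertain. Outside the 58, 2 probe sets that list Trim34a with Trim34b rose by 2.08 and 1.93 in KO and 1.95 and 1.99 in WT cells, and 1 that lists Trim30a with Trim30d rose by 3.49 in KO and 3.27 in WT cells.

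Of 19 regulators of sensors and innate signalling, 3 rose and 9 fell in KO cells, and 4 rose and 7 fell in WT cells. Falls were also the more frequent call over all genes (16% higher and 25.8% lower in KO, 21.3% higher and 30.9% lower in WT). The median change of the 19 was -0.21 in KO and -0.10 in WT cells, beside 0.00 and 0.04 over all genes. Trim13, Trim14 and Trim26 rose in both genotypes, and Trim25 passed in WT cells.

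Trim26, a ligase reported to act on nuclear IRF3, lies on chromosome 17, and its stretch begins 25 bases before the first match, which itself starts 160 bases before the annotated start.
Trim26, chr17:36836961-36837026, plus strand: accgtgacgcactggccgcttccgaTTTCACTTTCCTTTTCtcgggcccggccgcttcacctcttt

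Trim26 had 11.08 and 11.45 in KO with LPS, 11.01 and 11.07 in WT with LPS, 9.60 and 9.48 in unstimulated KO, and 9.52 and 9.34 in unstimulated WT. The conditions were far apart, and the rise was 3.31-fold in KO and 3.05-fold in WT cells. Trim14, a family member without a RING finger that serves as an adaptor at MAVS, had 11.38 and 11.84 in KO with LPS, 11.63 and 11.71 in WT with LPS, 10.32 and 10.11 in unstimulated KO, and 10.31 and 10.21 in unstimulated WT. It rose 2.64-fold in KO and 2.66-fold in WT cells, with the genotypes overlapping.

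Trim13, a ligase anchored in the endoplasmic reticulum, had 10.43 and 10.44 in KO with LPS, 11.33 and 11.44 in WT with LPS, 8.81 and 8.69 in unstimulated KO, and 8.97 and 8.89 in unstimulated WT. Both groups with LPS were above both groups without, and the KO arrays with LPS lay between the unstimulated arrays and WT with LPS. LPS raised it 3.22-fold in KO cells (log2 1.69 ± 0.10) and 5.49-fold in WT cells (2.46 ± 0.10). Neither of its 2 promoter windows held the motif.

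Trim25, which attaches the ubiquitin chains that activate RIG-I, had 12.68 and 13.03 in KO with LPS, 12.85 and 12.95 in WT with LPS, 12.66 and 12.52 in unstimulated KO, and 12.55 and 12.41 in unstimulated WT. The conditions did not overlap, but the distance was small: 0.27 ± 0.13 in KO (adjusted p = 0.123, limma) and 0.41 ± 0.13 in WT cells (adjusted p = 0.0187). Another probe set of Trim25 with a lower mean gave rises of 2.62 in KO and 2.75 in WT cells, so the size of its response depends on the probe set.

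The falls in this class included the ligase of MDA5, Trim65. It had 7.46 and 7.10 in KO with LPS, 6.65 and 6.81 in WT with LPS, 8.59 and 8.47 in unstimulated KO, and 8.31 and 8.45 in unstimulated WT. All LPS arrays were lower than all unstimulated arrays, by 2.38-fold in KO and 3.14-fold in WT cells. Trim8, which ubiquitinates TAK1, had 7.36 and 8.08 in KO with LPS, 7.80 and 7.94 in WT with LPS, 9.13 and 8.98 in unstimulated KO, and 9.30 and 9.23 in unstimulated WT. Trim8 was 2.52-fold lower in KO and 2.64-fold lower in WT cells, and its KO arrays with LPS were the farthest apart of the groups. Another Trim8 probe set with a mean above the array medians gave -0.68 in each genotype. One with a mean under them gave 0.03 in KO and 0.14 in WT cells and did not pass.

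Trim27, Trim39, Trim41 and Trim45 also fell in both genotypes, by 0.56 to 1.15 in KO cells and by 0.54 to 0.88 in WT cells. Trim35 and Trim56 passed in KO cells (-0.88 and -0.75) and not in WT cells (-0.30 and -0.10). Trim23, which combines a RING finger with a GTPase domain, passed in WT cells (-0.55) and not in KO cells (-0.21). Trim11 passed narrowly in KO cells at -0.33 (adjusted p = 0.0450, limma) and was at -0.31 in WT cells (adjusted p = 0.0527).

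The nuclear corepressor members Trim24, Trim28 and Trim33, which carry a PHD finger and bromodomain, fell in both genotypes. Trim66, the remaining relative, was under the array median throughout. Trim24 had 5.73 and 6.61 in KO with LPS, 5.83 and 6.20 in WT with LPS, 8.34 and 8.12 in unstimulated KO, and 8.44 and 8.56 in unstimulated WT. The LPS arrays were all far below the unstimulated arrays and lay around or under the array median. By this probe set the fall was therefore at least 4.18-fold in KO and at least 5.59-fold in WT cells. Another Trim24 probe set, with a mean under the array medians, gave -0.61 in KO and -0.88 in WT cells. The dimmest did not pass in either genotype, so the size of the fall depends on the probe set. Trim28, the KAP1 scaffold that works with zinc finger repressors, fell by 0.52 in KO and 0.37 in WT cells. Trim33, a partner and regulator of Smad4, fell by 0.71 in KO and 0.87 in WT cells.

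Trim47, a ring finger protein with a SPRY domain, had the largest measured fall, which cannot be ranked against that of Trim24, known only as a lower bound. It had 7.04 and 7.58 in KO with LPS, 7.85 and 7.46 in WT with LPS, 10.18 and 9.98 in unstimulated KO, and 10.48 and 10.39 in unstimulated WT. The conditions were more than 2 log2 units apart, and the fall was 6.84-fold in KO (log2 -2.77 ± 0.18, adjusted p = 1.85e-07, limma) and 6.86-fold in WT cells (-2.78 ± 0.18, adjusted p = 1.68e-07). Trim37, a ligase of peroxisomes and centrioles, had 7.42 and 7.81 in KO with LPS, 7.27 and 7.31 in WT with LPS, 8.91 and 8.85 in unstimulated KO, and 8.97 and 9.04 in unstimulated WT. It was 2.40-fold lower in KO and 3.29-fold lower in WT cells, with no overlap between conditions.

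Trim16, a member without a RING finger that takes part in the autophagy of damaged lysosomes, had 6.40 and 6.54 in KO with LPS, 6.47 and 6.53 in WT with LPS, 7.84 and 7.70 in unstimulated KO, and 8.09 and 7.97 in unstimulated WT. The levels with LPS lay at the array median in both genotypes, and the fall was at least 2.46-fold in KO and at least 2.89-fold in WT cells. Trim59, a membrane-anchored member, had 7.60 and 7.94 in KO with LPS, 6.89 and 7.40 in WT with LPS, 8.15 and 8.50 in unstimulated KO, and 8.14 and 8.69 in unstimulated WT. Its replicates were up to 0.55 apart, and the fall passed in WT cells (2.41-fold, adjusted p = 0.000385, limma) and not in KO cells (-0.56, adjusted p = 0.0566).

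Trim44, which has a ubiquitin-protease-like zinc finger in place of the RING, had 9.58 and 9.99 in KO with LPS, 9.48 and 9.47 in WT with LPS, 10.63 and 10.54 in unstimulated KO, and 10.56 and 10.56 in unstimulated WT. By this probe set it was 1.74-fold lower in KO and 2.13-fold lower in WT cells. A second probe set of the gene was called in the opposite direction, at 0.43 in KO and 0.40 in WT cells. Trim44 was the only member of 31 with several probe sets whose probe sets were called in opposite directions with LPS.

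Of the 9 members of the NHL-repeat and fibronectin classes, 4 were under the array median in all groups. Trim36 alone rose, and Trim32, known from a limb-girdle muscular dystrophy in people, fell by 0.67 in KO and 0.98 in WT cells. Its relative Trim2 fell at least 1.86-fold in WT cells and was under the array median in KO cells with and without LPS. Trim3 fell by 0.45 in WT cells and was at -0.29 in KO cells, where it did not pass.

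Between genotypes a minority of the family differed, and the differences that passed were seen under LPS. In KO against WT cells with LPS, 8 TRIM genes were higher and 3 lower (13.8% and 5.17% of members), where 8.01% of all genes were higher and 5.73% lower. Without LPS 0 members were higher and 0 lower by limma, where 0.154% and 0.346% of all genes were. Unadjusted, 4 of the 58 members had p under 0.05 without LPS and 16 with it, beside 2445 and 4428 of all 18193 genes. The difference of the LPS responses, KO minus WT, passed upward for 2 members and downward for 1 (3.45% and 1.72%, against 5.72% and 2.87% of all genes). For it 11 members had unadjusted p under 0.05, beside 4165 of all genes. The comparison of genotypes with LPS and the difference of responses share all 4 arrays with LPS. The median KO minus WT difference with LPS was -0.02 over the members and 0.02 over all genes.

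The counts of higher and of lower members under LPS depend on single arrays: each moved both up and down when 1 array with LPS was left out. Such a fit leaves 1 array in its group. The share of all genes called in it is not given here, so the moves are not read as a result about the members. Trim36 and Trim13 passed in every one of these fits, and each of the 9 others fell short of the threshold without at least 1 array. For the difference of responses the counts also moved when 1 array was left out.

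**Figure D4:**
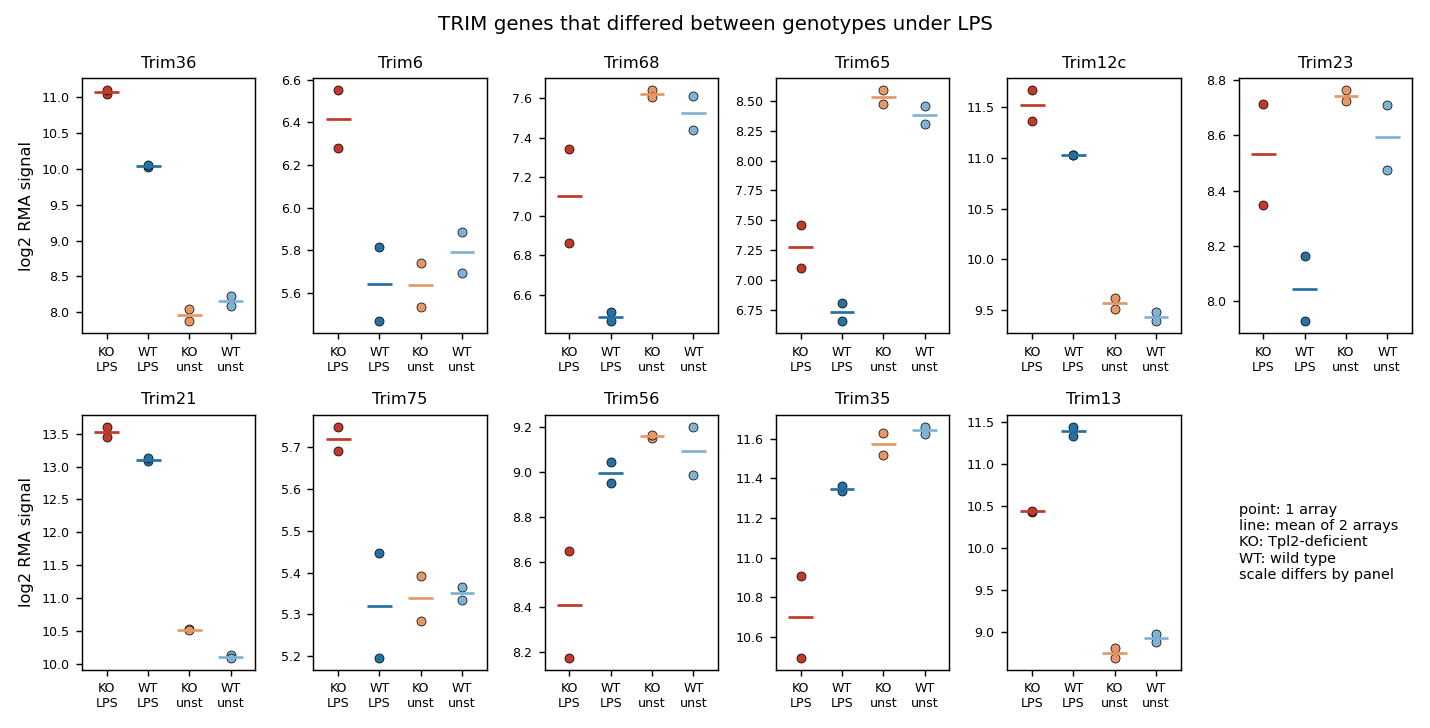
Log2 signal of the 11 TRIM genes that passed the KO against WT test under LPS, 1 panel per gene with its own scale; points are arrays and lines are means of 2. In each panel the 2 KO points with LPS lie on the same side of the 2 WT points with LPS, and the distance is largest for Trim36 and Trim13.

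Trim36, a microtubule-associated ligase known as haprin from mouse sperm, carried the largest difference. Like the targeted gene Map3k8, it lies on chromosome 18, and the part of that chromosome in the difference was not tested. It had 11.04 and 11.09 in KO with LPS, 10.02 and 10.05 in WT with LPS, 8.05 and 7.87 in unstimulated KO, and 8.09 and 8.23 in unstimulated WT. LPS put both genotypes well above their unstimulated arrays, and KO with LPS stood 1 log2 unit clear of WT with LPS, while without LPS the KO arrays were slightly under the WT arrays. The level with LPS was 2.04-fold higher in KO (log2 1.03 ± 0.11, adjusted p = 5.90e-05, limma). The rise was 8.60-fold in KO and 3.66-fold in WT cells, and the responses differed by 1.23 ± 0.15 (adjusted p = 0.000524, limma). A second probe set of Trim36 gave 0.52 for KO minus WT with LPS (adjusted p = 0.0199) and 0.49 for the difference of responses (adjusted p = 0.144), with rises of 2.42 in KO and 1.93 in WT cells.

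Trim13 differed the other way, and its 8 values are given above. With LPS it was 1.93-fold lower in KO (log2 -0.95 ± 0.10, adjusted p = 8.06e-05, limma), and the response was smaller in KO by 0.77 (difference -0.77 ± 0.14, adjusted p = 0.00732). Without LPS it differed by -0.18 (adjusted p = 0.464), with both KO arrays below both WT arrays. Of the 10 members that rose in both genotypes, Trim36 and Trim13 were the ones whose responses differed past the test.

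Trim6, which in human cells makes free ubiquitin chains that switch on IKK-epsilon, had 6.28 and 6.55 in KO with LPS, 5.47 and 5.82 in WT with LPS, 5.74 and 5.53 in unstimulated KO, and 5.89 and 5.70 in unstimulated WT. The KO arrays with LPS were the highest, but all group means lay under the array medians, so no fold is given. The statistic was 0.77 ± 0.15 with LPS (adjusted p = 0.00446, limma) and 0.93 ± 0.21 for the difference of responses (adjusted p = 0.0190). A second probe set gave 0.08 and -0.00.

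Trim68, described in human cells as a partner of the androgen receptor, had 6.86 and 7.34 in KO with LPS, 6.46 and 6.51 in WT with LPS, 7.64 and 7.60 in unstimulated KO, and 7.61 and 7.44 in unstimulated WT. WT with LPS stood lowest, at the array median, and KO with LPS lay between it and the unstimulated arrays. It was at least 1.53-fold higher in KO with LPS (adjusted p = 0.0155, limma).

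Trim65 had the same arrangement at the values given above, with KO with LPS 1.46-fold higher than WT with LPS (adjusted p = 0.0176, limma). Trim23 had 8.35 and 8.71 in KO with LPS, 7.93 and 8.16 in WT with LPS, 8.76 and 8.72 in unstimulated KO, and 8.48 and 8.71 in unstimulated WT. WT with LPS was lowest here too, and KO with LPS was 1.40-fold higher (adjusted p = 0.0438, limma). The differences of responses of Trim68, Trim65 and Trim23, at 0.52, 0.40 and 0.33, did not pass.

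Trim12c was 1.40-fold higher in KO with LPS (0.49 ± 0.12, adjusted p = 0.0177, limma). Its other probe set gave -0.22 (adjusted p = 0.480). Trim21 was 1.34-fold higher with LPS (0.42 ± 0.10, adjusted p = 0.0176) and the same distance apart without it (0.41 ± 0.10, adjusted p = 0.132), so the difference of its responses was 0.01 (95% interval -0.31 to 0.32). A second probe set of Trim21 gave larger distances, 1.60 with LPS (adjusted p = 1.11e-05) and 1.08 without it (adjusted p = 0.00370).

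Trim35, reported to act on IRF7, had 10.49 and 10.91 in KO with LPS, 11.34 and 11.36 in WT with LPS, 11.63 and 11.52 in unstimulated KO, and 11.66 and 11.63 in unstimulated WT. KO with LPS was below every other array, 1.57-fold lower than WT with LPS (-0.65 ± 0.13, adjusted p = 0.00662, limma). Its 2 other probe sets gave -0.47 and -0.57 and also passed.

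Trim56, an antiviral ligase linked to the TLR3 and STING routes, had 8.17 and 8.65 in KO with LPS, 8.95 and 9.04 in WT with LPS, 9.15 and 9.16 in unstimulated KO, and 9.20 and 8.99 in unstimulated WT. It too was lowest in KO with LPS, by -0.59 ± 0.15 against WT with LPS (adjusted p = 0.0220, limma). The differences of responses of Trim35 and Trim56, -0.58 and -0.65, did not pass (adjusted p = 0.0826 for each).

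Trim75 had 5.69 and 5.75 in KO with LPS, 5.20 and 5.45 in WT with LPS, 5.39 and 5.29 in unstimulated KO, and 5.33 and 5.37 in unstimulated WT. KO with LPS was highest, but all of it lay under the array median and no fold is given (0.40 ± 0.11, adjusted p = 0.0359, limma).

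Most of the strongly induced members did not pass between genotypes under LPS. KO minus WT with LPS was -0.00 for Trim30d (95% interval -0.29 to 0.28), -0.03 for Trim30a (-0.25 to 0.20) and -0.14 for Trim12a (-0.36 to 0.08). Trim14 and Trim26 were at -0.06 and 0.23. For Trim30d a second, dimmer probe set disagreed: it gave -0.64 with LPS (adjusted p = 0.0123, limma over 34945 probe sets) and -1.13 for the difference of responses (adjusted p = 0.00655).

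**Figure D5:**
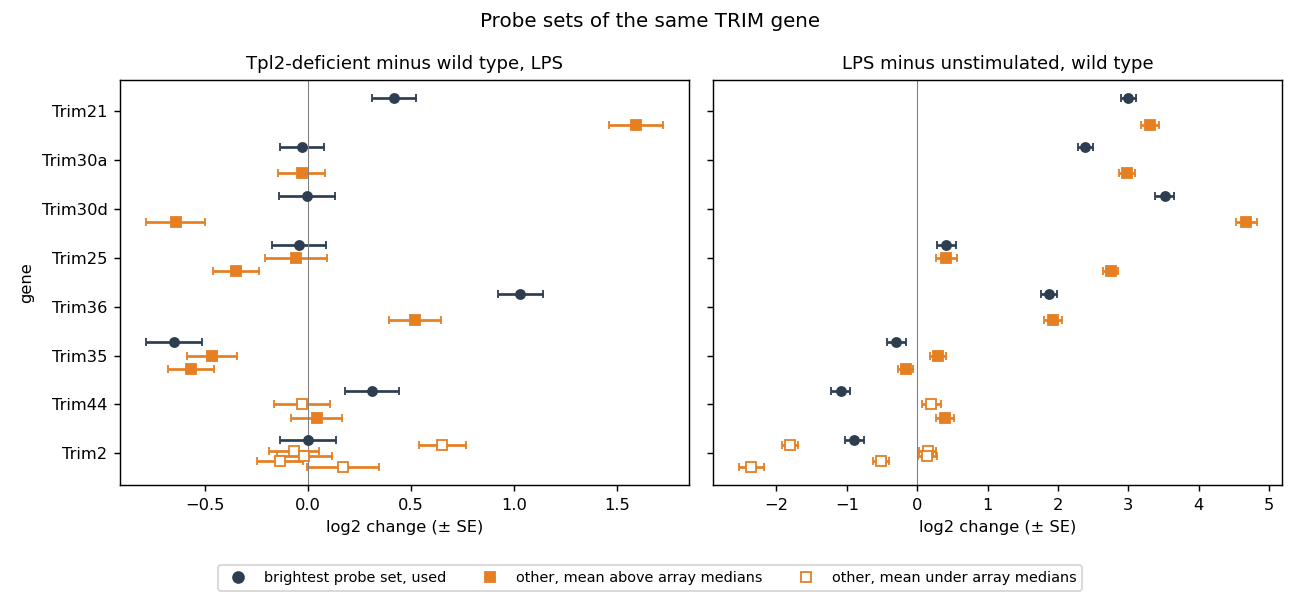
Log2 change (± SE) of every probe set of 8 TRIM genes, for KO minus WT with LPS (left) and LPS minus unstimulated in WT (right); dark circles are the probe sets used and squares the others, open where the mean lies under the array medians. The probe sets of Trim21 and Trim30d lie apart on the left, and those of Trim25, Trim44 and Trim2 lie apart on the right.

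Of the 31 members with several probe sets, the probe sets differed in whether they passed in 13 for LPS in KO cells, 10 for LPS in WT cells, 5 for KO against WT with LPS, 1 for KO against WT without LPS and 5 for the difference of responses. Of all 34945 probe sets tested singly, 39% passed for LPS in KO cells, 47.7% for LPS in WT cells, 11.9% for KO against WT with LPS, 0.335% for it without LPS and 6.41% for the difference of responses. Trim2 is a case where an unused probe set passed and the used one did not: it gave 0.65 for KO minus WT with LPS (adjusted p = 0.00278, limma) and 1.18 for the difference of responses (adjusted p = 0.00114), at a mean under the array medians.

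Genes of the surrounding pathways are given beside the same background, in which 16% of all genes were higher and 25.8% lower with LPS in KO cells, and 21.3% higher and 30.9% lower in WT cells. Of 5 TRIM-type genes under other names, 2 rose in each genotype: Pml, the scaffold of nuclear bodies (2.56 in KO, 2.64 in WT), and Mefv, which encodes pyrin (2.64 in KO, 3.11 in WT). Mid1, Mid2 and Bspry did not pass. Of 13 measured genes of RIG-I-like receptor and DNA sensing, 10 rose and 2 fell in each genotype, with a median change of 2.03 in KO and 1.79 in WT cells, beside 0.00 and 0.04 over all genes. The DNA sensor Zbp1 rose by 4.31 in KO and 4.32 in WT cells, and Ifih1, which encodes MDA5, the substrate of Trim65, by 3.94 in KO and 4.18 in WT cells. Irf7 rose by 3.17 in KO and 3.77 in WT cells, while the adaptor Mavs fell by 1.26 in KO and 1.44 in WT cells.

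Of 13 measured toll-like receptor signalling steps, 6 rose and 5 fell in each genotype, with a median change of 0.20 in KO and -0.01 in WT cells. Of 11 measured genes of ubiquitin and ISG15 conjugation, 9 rose and 0 fell in KO cells, and 8 rose and 0 fell in WT cells, with a median change of 0.66 in KO and 0.57 in WT cells. Usp18, the ISG15 protease, rose by 4.65 in KO and 5.02 in WT cells, and Herc6, the mouse ISG15 ligase, by 4.18 in KO and 4.27 in WT cells.

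Between genotypes with LPS, 8.01% of all genes were higher in KO and 5.73% lower. Of the 5 TRIM-type genes 0 passed. Of the 13 sensing genes 1 passed (Rnf135, the RIG-I ligase Riplet, 0.35 higher in KO). Of the 11 conjugation genes 1 passed (Ube2l6, the ISG15-conjugating enzyme, 0.43 higher in KO). Among the toll-like receptor steps Ikbkb was 1.00 higher and Ly96 0.51 higher in KO, and Tlr4 itself was 1.42 lower in KO. Tlr4 had 7.93 and 8.23 in KO with LPS, 9.54 and 9.45 in WT with LPS, 10.34 and 10.30 in unstimulated KO, and 10.18 and 10.24 in unstimulated WT. In these 4 lists 0 genes passed without LPS, where 0.154% of all genes were higher in KO and 0.346% lower.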

How the data were processed

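Per the labels' protocols, total RNA was column-purified and biotin-labelled. The deposited values are log2 RMA signals, with GCOS and RMA named in the submitters' processing notes. No chip definition file was named there. No further normalization or filter was applied. Gene names came from the array's annotation table: of 45101 probe sets, 34945 list exactly 1 symbol. All 58 member symbols were found in the RefSeq table (GRCm38.p6), which gave the gene order and the promoter sequences. A promoter window was found for 47 members. Trim3, Trim8, Trim11, Trim14, Trim16, Trim17, Trim29, Trim33, Trim35, Trim36 and Trim65 had none.

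The test was a two-sided moderated one (limma 3.58.1 under R 4.3.3, functions lmFit and eBayes, 4 group means, no replicate term) on all 8 arrays and 18193 genes, with Benjamini-Hochberg adjustment and a threshold of 0.05. Residual degrees of freedom were 4 and prior ones 6.87. In all 5 comparisons were made, namely LPS in each genotype, genotype in each condition, and how far the LPS responses differ. Probe sets were also fitted singly. On simulated data for KO against WT with LPS over 18193 genes, 67 genes were altered 1.5-fold, 67 altered 2-fold and 66 altered 4-fold. The share found was 86.6% at 1.5-fold, 100% at 2-fold and 98.5% at 4-fold, and 13 of 203 calls were false. In the measured data 1457 genes were called higher in KO with LPS and 1043 lower. The median SD over all genes was 0.129 in KO with LPS and 0.0660 in WT with LPS. Whether the simulated rates hold at those counts and that spread was not tested.

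The members, roles, lists and tests were chosen with earlier results of these data known. All members could be named; values on all arrays are given for members past a genotype test and for the larger LPS responses, and up to 4 genes are named per pathway list and comparison. Same-numbered replicates of different groups did not deviate together (r from -0.12 to 0.10), so the numbers were not treated as pairs. The alternatives were array weights, a mean-variance trend, quantile normalization repeated, centring on the hybridisation spike-ins, averaging a gene's probe sets, leaving out _x_at and _s_at probe sets, only genes above the median level, only the 4 arrays compared, a replicate block, and dropping every array once. A crossed block was added after seeing the data.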

Additional observations from a re-analysis of the deposited data

Results flagged for a closer look

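Between genotypes the LPS response differed past the test in 3 TRIM genes. The difference, KO minus WT, was 1.23 log2 units for Trim36, 0.93 for Trim6, whose group means all lay under the array medians, and -0.77 for Trim13.

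Probe sets that list several genes took no part in the comparisons, and 4 of the 5 that include a TRIM gene rose with LPS in both genotypes. Of single-symbol probe sets, 39% passed for LPS in KO and 47.7% in WT cells, in either direction. The share that rose in both genotypes was not counted, so the 4 are not read as a result about the family. Those listing Trim34a, Trim30a or Trim30d include genes already counted above. The probe sets listing Trim34b with Trim34a rose by 2.08 and 1.93 in KO cells and by 1.95 and 1.99 in WT cells. The one listing Gm38525 with Trim30b rose by 2.30 in KO and 2.49 in WT cells, and the one listing Trim30d with Trim30a by 3.49 in KO and 3.27 in WT cells.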

How the results depend on the processing

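Of 139 counts of members recomputed under the alternatives, 115 stayed within 1.5 times the value reported and 24 did not, and of 615 results for single genes 576 kept their direction and their side of the threshold, 39 fell short of the threshold and 0 reversed. The number of members higher in KO with LPS, 8 as reported, was 4 with array weights, 4 with only the 4 arrays compared, 5 with probe sets averaged and 5 with only genes above the median level. Without LPS the number higher, 0 as reported, was 1 with array weights, 1 with probe sets averaged and 1 with a mean-variance trend. The number whose response was larger in KO, 2 as reported, was 1 with probe sets averaged and 1 with only genes above the median level, and the number whose response was smaller, 1 as reported, was 2 with probe sets averaged, 2 with the trend, 2 with quantile normalization repeated and 3 with only genes above the median level. The cause of these moves was not tested. The share of all genes called under each alternative is not given in this section. The counts here are therefore not read as a result about the members. With the replicate block the counts higher and lower were 13 and 20 for LPS in KO cells, 14 and 19 for LPS in WT cells, 9 and 3 for KO against WT with LPS, 0 and 0 without LPS, and 3 and 1 for the difference of responses, and no count moved by over 1.5 times. The crossed pairing gave 13 higher and 21 lower for LPS in KO cells. Leaving out each array gave 11 to 16 higher and 17 to 21 lower for LPS in KO cells, 10 to 13 higher and 16 to 19 lower for LPS in WT cells, 1 to 10 higher and 1 to 6 lower for KO against WT with LPS, 0 to 0 in both directions without LPS, and 1 to 7 higher and 1 to 4 lower for the difference of responses. The 7 and the 4 came without KO with LPS replicate 1. The KO against WT calls of Trim12c, Trim21, Trim23, Trim35, Trim56, Trim6, Trim65, Trim68 and Trim75 under LPS were lost under at least 1 alternative, and those of Trim36 and Trim13 under none. The Trim6 difference of responses was lost with probe sets averaged and without any 1 of 4 arrays (KO with LPS replicate 2, unstimulated KO replicate 2, WT with LPS replicate 1 and unstimulated WT replicate 1), and with probe sets averaged so was the WT fall of Trim44 with LPS (-0.16). Centring on the spike-ins moved the median of all genes by -0.21 for LPS in KO and by -0.14 in WT cells. Signal near the array median limits what can be said of 17 members.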
